A study of Mus musculus with 6 samples.

Results

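Nppc, Erfe, Edn3, Tac4, Ankrd1, Asb5 and Mrln code for secreted peptides, a muscle hormone, ankyrin-repeat proteins and a membrane micropeptide, and were followed in cells sorted from mouse hind limb muscle. They were chosen by their array intensity in this same dataset, which was high in satellite cells, so their difference from the other cells is described here and not tested. Each of the 7 genes has 1 probe on the array and each probe was above background on all 6 arrays, so all 7 are among the 18366 genes tested of 19321 named. RNA was amplified, labelled with Cy5 and hybridised to 6 one-colour arrays, 1 for each of 3 populations at 2 ages, all from C57BL/6 mice. The groups are aged (24 to 28 months) and young (8 to 10 weeks) satellite cells, aged and young PDGFRa+ mesenchymal progenitors (PDGFRa below), and aged and young cells that carried CD31 or CD45 (CD31_CD45 below), a mixture of endothelial and blood-derived cells. Cells of repeated sorts were pooled for each array, so an array averages over mice and no group has a replicate. The study asked which genes mark each population and which differ with age.

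Satellite cells are the stem cells of skeletal muscle. They lie against the fibre under its basal lamina, are kept quiescent in resting muscle, and carry the transcription factor Pax7. Nppc encodes the precursor of C-type natriuretic peptide, which raises cyclic GMP through the guanylyl cyclase receptor Npr2 and is cleared by Npr3. Edn3 encodes the precursor of endothelin 3, a ligand of the receptor Ednrb best known for guiding neural crest cells. Tac4 encodes hemokinin, a tachykinin that acts on the receptor Tacr1. Erfe encodes erythroferrone, also called myonectin, a hormone of the C1q/TNF-related family that binds BMP ligands and lowers hepcidin in the liver. Ankrd1 encodes a muscle ankyrin repeat protein that sits on titin and in the nucleus and is induced by stretch and by YAP with TEAD factors. Asb5 encodes an ankyrin repeat and SOCS box protein of the kind that brings substrates to a cullin 5 ubiquitin ligase. Mrln encodes myoregulin, a micropeptide of the sarcoplasmic reticulum that inhibits the SERCA calcium pump of skeletal muscle.

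Between 88.4% and 92.3% of the 23473 probes of an array were above background, and values are given as the intensities the authors deposited, in which the median of each array is 25. These intensities compare arrays for 1 probe, not 1 gene with another. The satellite label held against its markers. Pax7 read 1361.6 in aged and 1055 in young satellite cells, 3.7 in aged and 10.6 in young CD31_CD45 cells, and was not above background in either PDGFRa array. Pdgfra read 60.6 in aged and 7.6 in young satellite cells, against 4149 and 5700.4 in aged and young PDGFRa cells. Pecam1 (CD31) and Ptprc (CD45) read at most 50.1 and 4.6 in satellite cells, against at least 2450.7 and 251.7 in CD31_CD45 cells. Other cells' genes were not at 0 in the satellite sorts. Of 15 myofibre markers, 14 or 15 were above background on every array. Their summed intensity was 6885.2 in aged and 3649.4 in young satellite cells. It was lower elsewhere, at 298.1 and 537.8 in aged and young PDGFRa cells and 996.7 and 1260.9 in aged and young CD31_CD45 cells. Myofibre markers thus also read highest in the satellite sorts, and the part of fibre RNA in the levels of the 7 genes was not tested.

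All 7 genes were high in both satellite arrays and low in the other 4. For each of them the lower satellite value lay above the highest value of the other populations, which was also so for 23% of all genes tested and restates the choice of the genes. Nppc (chromosome 1, 86666293 to 86670573, GRCm38.p6) read 3550.6 in aged and 6333.9 in young satellite cells. It read 25.5 and 56.2 in aged and young PDGFRa cells and 18.9 and 68.2 in aged and young CD31_CD45 cells. The lower satellite value was thus 52.1 times the highest of the others. In bulk samples such as these, fewer expressing cells and less RNA per cell cannot be told apart.

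Edn3 (chromosome 2, 174760619 to 174784042) read 395.7 in aged and 1012.5 in young satellite cells. Its other 4 values lay close together, from 36.4 in aged CD31_CD45 to 42.9 in young PDGFRa cells, and the gap between the populations was 9.22-fold. Tac4 (chromosome 11, 95261529 to 95269265) was the member nearest the detection limit outside satellite cells. It read 76.6 in aged and 238.9 in young satellite cells, 1.5 and 2.3 in aged and young PDGFRa cells, and 1.2 and 3.6 in aged and young CD31_CD45 cells, where the lowest intensities reported on any array were 0.7 to 0.9. Erfe (chromosome 1, 91366305 to 91374217) read 2050.5 in aged and 2582.1 in young satellite cells. It read 10.1 and 4.9 in aged and young PDGFRa cells and 7.7 and 23.8 in aged and young CD31_CD45 cells, and the lower satellite value was 86.2 times the highest of these.

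Ankrd1 (chromosome 19, 36111965 to 36119844) read 5799.3 in aged and 2230.6 in young satellite cells. It read 21.9 and 2.7 in aged and young PDGFRa cells and 27.5 and 18.0 in aged and young CD31_CD45 cells. Asb5 (chromosome 8, 54550331 to 54587842) read 2992.0 in aged and 1387.1 in young satellite cells, and between 10.0 and 20.6 on the other 4 arrays. Both genes thus stood higher in aged than in young satellite cells, where Nppc, Edn3, Tac4 and Erfe stood lower. Mrln (chromosome 10, 70204664 to 70219711) followed the lower group, with 515.2 in aged and 1215.9 in young satellite cells. It read 20.5 and 33.6 in aged and young PDGFRa cells and 6.3 and 12 in aged and young CD31_CD45 cells, so its lower satellite value was 15.3 times the highest other value.

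**Figure D1:**
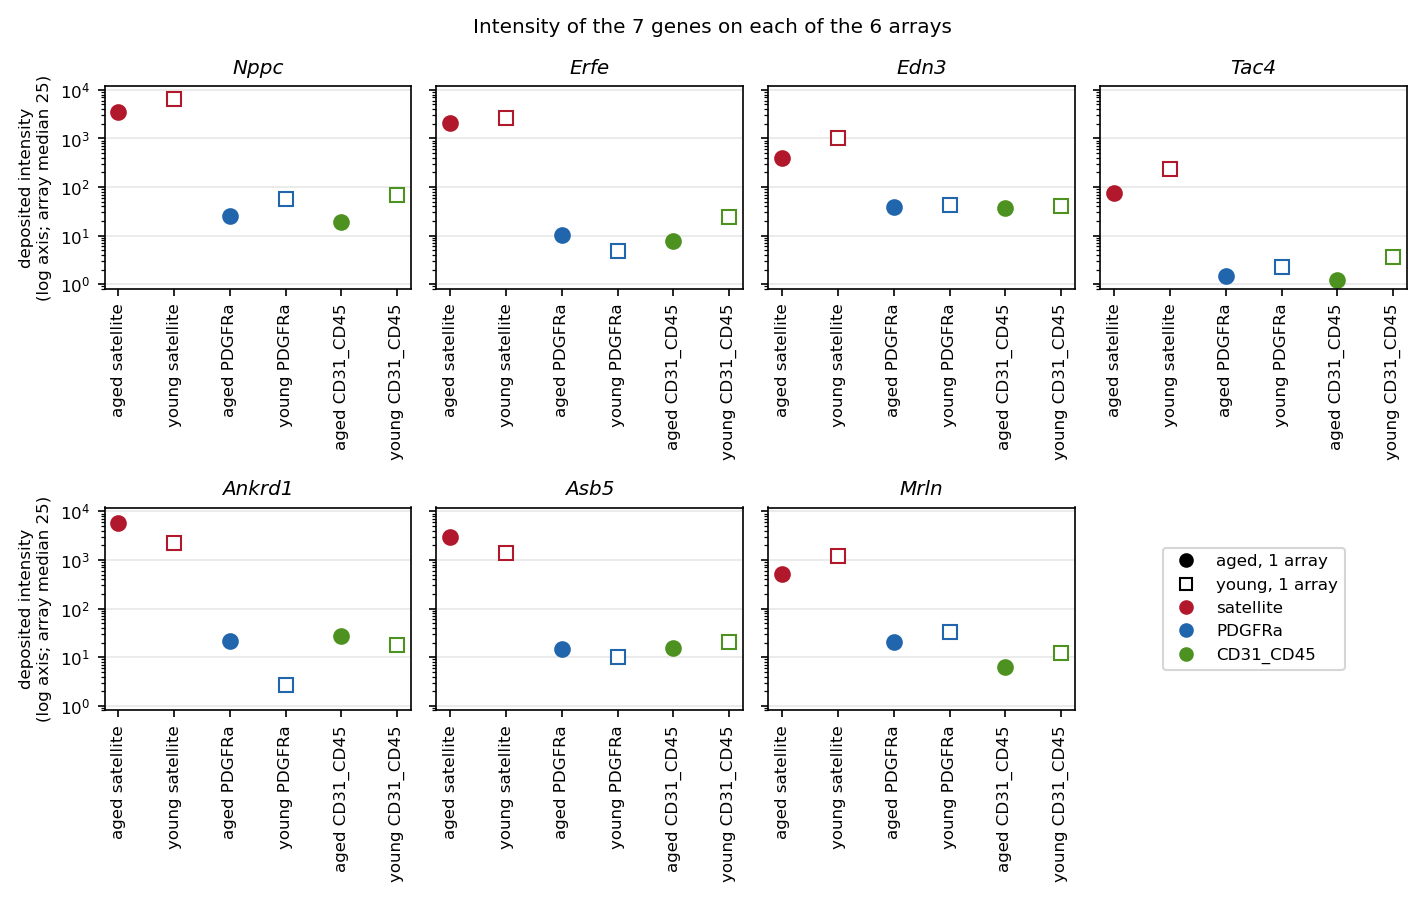
Deposited intensity (log axis, array median 25) of the 7 genes on each array, with filled circles for aged and open squares for young cells, 1 array each, coloured by population. Each gene's satellite points lie above all 4 other points, by 9.22-fold for Edn3 and by 86.2-fold for Erfe, and the aged satellite point is above the young one for Ankrd1 and Asb5 alone.

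On the log2 scale used for the tests below (background-corrected spot intensities plus an offset of 50, quantile normalised), the smaller of the mean differences between satellite cells and each other population was 5.87 for Ankrd1, 5.72 for Nppc and 5.50 for Erfe, which ranked 1, 2 and 3 of 18366 genes. The others followed with 5.26 for Asb5 (rank 6), 3.79 for Mrln (rank 15), 3.18 for Edn3 (rank 21) and 2.25 for Tac4 (rank 56). The ranks describe how the genes were chosen. The scanner files fall into 2 sets by the slope that joins their gains (0.465 to 0.466 and 0.477 to 0.478): the aged and young PDGFRa arrays and the young satellite array are in one, and the aged satellite array and both CD31_CD45 arrays in the other. Within the first set, young satellite minus young PDGFRa cells ran from 2.90 for Tac4 to 5.93 for Erfe. Within the second, aged satellite minus aged CD31_CD45 cells ran from 1.65 for Tac4 to 6.37 for Ankrd1.

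The promoters of all 7 genes, 250 bases before to 50 bases after an annotated start, were read from RefSeq (GRCm38.p6), in 9 windows because Asb5 has 3 starts. Motifs were searched on both strands. The E-box CANNTG, which basic helix-loop-helix factors such as MyoD bind, occurred in a window of 5 of the 7 genes, against 72.3% of 32851 promoters of the same length. Its form CAGCTG, counted within CANNTG too, occurred for 2 of 7, Edn3 and Asb5, against 16.3% of promoters. The TEAD motif GGAATG occurred for 1 of 7, Ankrd1, against 14.7%. Ankrd1 held it at 2 places, which 1.36% of promoters do. The CRE half-site TGACG occurred for 0 of 7, against 20.8%. Nppc and Erfe held none of the 4 motifs in this window. The windows of the 3 genes with CAGCTG or GGAATG are shown 5′ to 3′ in the direction of the gene, with those motifs in capitals. In the Ankrd1 window (minus strand) the first bases of the 2 motifs lie 210 and 123 bases before the start. In the Edn3 window (plus strand) the motif begins 77 bases before the start. In that of the first Asb5 start (plus strand) it begins at base 29 after it. A match is a string of letters and says nothing of binding in these cells.
Ankrd1, chr19:36119795-36120094: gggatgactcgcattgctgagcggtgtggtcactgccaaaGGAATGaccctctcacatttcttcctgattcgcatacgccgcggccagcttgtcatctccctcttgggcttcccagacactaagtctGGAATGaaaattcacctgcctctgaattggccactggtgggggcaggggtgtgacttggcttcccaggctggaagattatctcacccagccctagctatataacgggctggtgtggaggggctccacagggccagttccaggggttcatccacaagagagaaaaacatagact
Edn3, chr2:174760369-174760668: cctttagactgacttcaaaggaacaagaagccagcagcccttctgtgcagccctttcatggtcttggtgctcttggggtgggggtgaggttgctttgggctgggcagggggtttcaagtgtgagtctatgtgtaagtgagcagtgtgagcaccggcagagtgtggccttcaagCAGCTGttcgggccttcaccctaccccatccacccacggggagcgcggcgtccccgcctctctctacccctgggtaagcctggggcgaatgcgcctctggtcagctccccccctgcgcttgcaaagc
Asb5, chr8:54550081-54550380: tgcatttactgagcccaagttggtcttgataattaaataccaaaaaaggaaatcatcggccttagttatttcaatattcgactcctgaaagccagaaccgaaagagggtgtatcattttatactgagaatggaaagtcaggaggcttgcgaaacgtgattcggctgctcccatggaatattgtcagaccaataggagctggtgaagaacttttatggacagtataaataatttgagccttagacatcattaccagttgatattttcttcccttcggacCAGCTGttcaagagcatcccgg

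Between the aged and the young satellite array the 7 genes differed in both directions, 1 array against 1, so without a test. These 2 arrays belong to different scanner sets, so age and scanner set cannot be told apart here. Among the peptide and micropeptide genes, 3 were at least 2-fold lower in aged satellite cells: Tac4 by a log2 difference of -1.29, Edn3 by -1.21 and Mrln by -1.10. On the log2 scale with the offset few genes were: 18 of 18018 (0.0999%) above background in either satellite array were at least 2-fold lower. Tac4, Edn3 and Mrln held the places 4, 9 and 12 from the lowest on that scale. The offset compresses differences of dim genes, and the count depended on the processing. It was 11 with median scaling, 46 without background correction and 60 with an offset of 10. With the deposited table it was 558, and with the local background of each spot 668. At least 2-fold higher in aged satellite cells were Ankrd1 (1.21) and Asb5 (1.03), among 203 genes (1.13%). Nppc had -0.60 and Erfe -0.19, both short of 2-fold. The genes were picked with earlier results of these arrays known, and their places in this ranking describe 2 arrays.

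**Figure D2:**
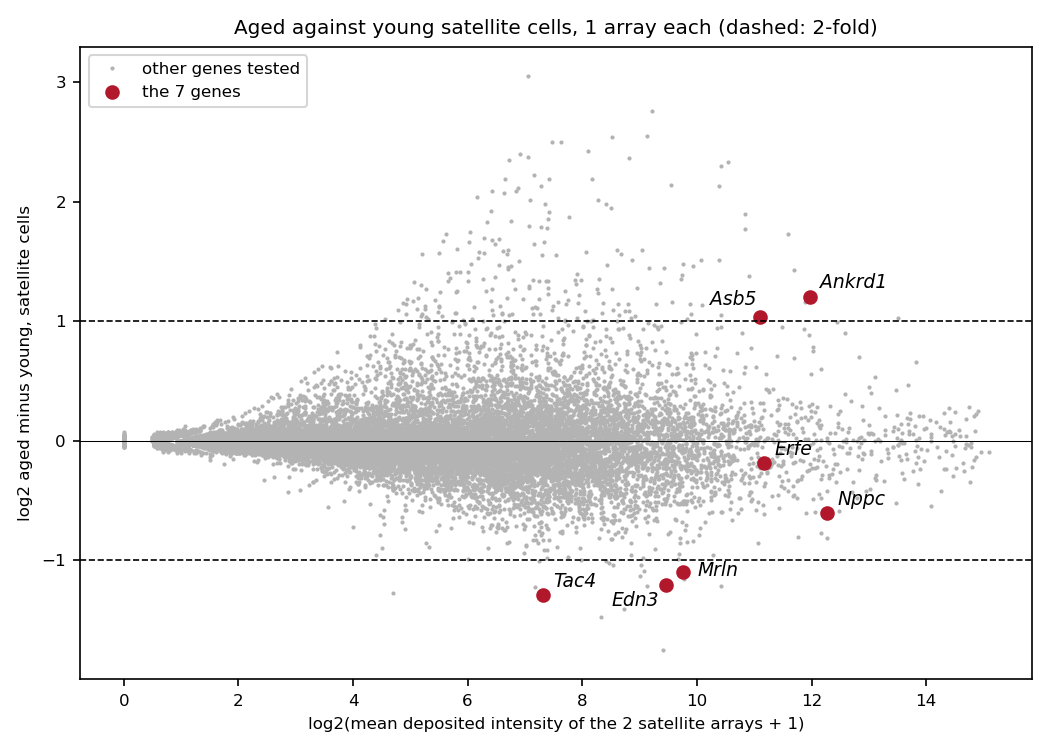
Each point is a gene tested, with its mean deposited intensity over the 2 satellite arrays on the x axis (log2 of the mean plus 1) and its log2 aged minus young difference in satellite cells on the y axis. Tac4, Edn3 and Mrln lie below the lower dashed 2-fold line at -1.29, -1.21 and -1.10, and Ankrd1 and Asb5 lie above the upper one at 1.21 and 1.03.

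Markers of other cells differed between these same 2 arrays. Of 15 myofibre markers, 15 were higher in aged satellite cells and 6 were at least 2-fold higher (median log2 0.96), with Myh4, a fast myosin heavy chain, at 298.9 in aged and 112.1 in young and Ckm, muscle creatine kinase, at 544.9 in aged and 244.4 in young. Among the 7 genes, Ankrd1, whose muscle protein sits on titin, stood at 1.21 in this pair and Asb5 at 1.03. Mrln, itself known from muscle fibres, stood at -1.10, but at -0.14 with the local background of each spot. On the offset scale Nppc, Edn3, Tac4 and Erfe were lower in aged cells as well. Of 11 mesenchymal progenitor markers 10 were higher (median 0.51, summed intensity 12686.5 in aged and 9802.4 in young), and of 8 pericyte and smooth muscle markers 7 were higher (median 1.01, summed intensity 8429.7 and 4839.3). Satellite cell markers were nearer to level by their median, with 5 of 14 higher and 9 lower (median -0.09), though their summed intensity was 22403.6 in aged and 28559.4 in young cells. Among them Calcr, the calcitonin receptor of quiescent satellite cells, read 98.3 in aged and 232.9 in young cells, a log2 difference of -0.98. The part of these other cells in the differences of the 7 genes was not tested, and since the aged and young satellite arrays belong to different scanner sets, age and scanner set cannot be told apart in this pair.

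Outside satellite cells the same genes gave other age differences. In the PDGFRa pair, where 0.262% of genes were at least 2-fold higher and 0.162% lower, none of the 7 reached 2-fold on the offset scale. Ankrd1 had the largest difference there, at 0.66, and Nppc was next, at -0.50, with Mrln at -0.23, Erfe at 0.22, Asb5 at 0.19, Edn3 at 0.02 and Tac4 at -0.02. In the CD31_CD45 pair, where 0.514% were at least 2-fold higher and 0.0663% lower, none reached 2-fold either, although Nppc, at -0.95, held place 17 from the lowest of 18098 genes. Erfe stood at -0.48 there, Ankrd1 at 0.21, Mrln at -0.20, Asb5 at -0.16, Edn3 at -0.11 and Tac4 at -0.10. The age difference in satellite cells less the mean of the other 2 populations was -1.23 for Tac4, -1.16 for Edn3, 1.02 for Asb5, -0.88 for Mrln and 0.77 for Ankrd1, but 0.12 for Nppc and -0.06 for Erfe. The offset of 50 compresses differences at these low intensities. On the log2 scale of the deposited table (pseudocount 1), Ankrd1 was 2.63 higher in aged PDGFRa cells, more than its 1.38 in satellite cells, and Nppc stood at -0.83 in the satellite, -1.11 in the PDGFRa and -1.80 in the CD31_CD45 pair. Erfe stood at -1.51 and Tac4 at -1.06 in the CD31_CD45 pair on that scale. How far an age difference was larger in satellite cells thus depends on the scale, and for Ankrd1 and Nppc the order of the PDGFRa and satellite pairs turns with it. With 1 array per group these differences of differences could not be tested.

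**Figure D3:**
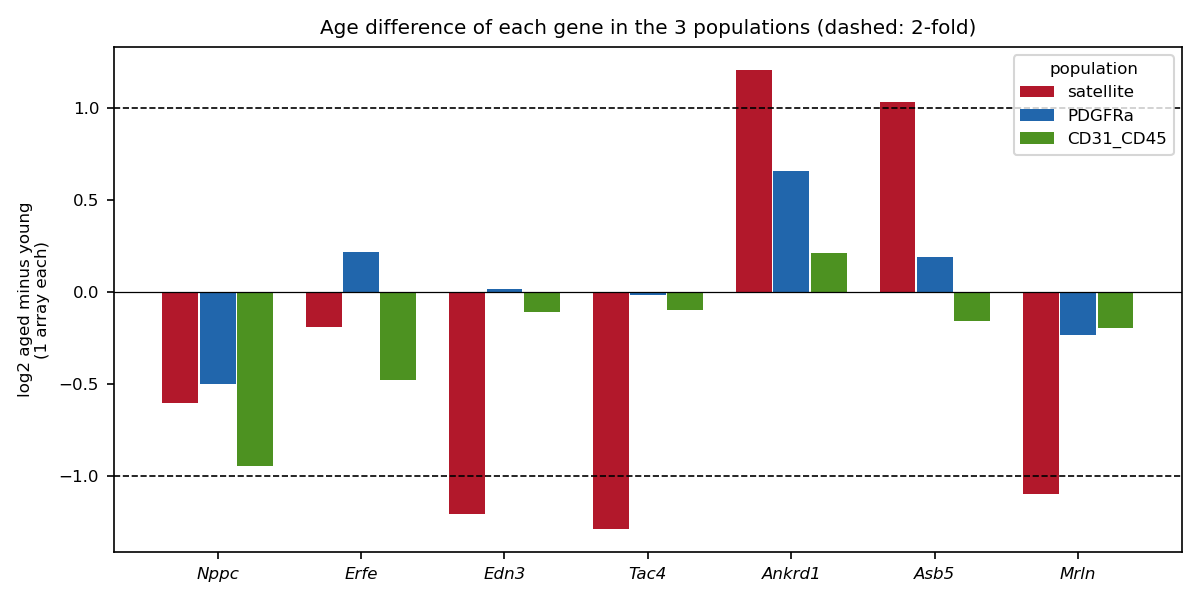
Bars give the log2 aged minus young difference of each of the 7 genes in satellite, PDGFRa and CD31_CD45 cells, 1 array against 1 for each bar, with dashed lines at 2-fold. Nppc is lower in aged cells of all 3 populations (-0.60, -0.50 and -0.95) and Ankrd1 higher in all 3 (1.21, 0.66 and 0.21), and on this scale, with its offset of 50, the Tac4 and Edn3 bars outside satellite cells lie between -0.11 and 0.02.

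Nppc was lower and Ankrd1 higher in aged cells of all 3 populations, as were 20.7% and 14.3% of all genes. With the local background of each spot Ankrd1 turned to -0.11 in the CD31_CD45 pair. Both genes were read at low levels outside satellite cells, and satellite markers read there as well. In CD31_CD45 cells, where Nppc read 18.9 in aged and 68.2 in young, Myf5, a myogenic factor, read 8.6 in aged and 28.9 in young, Chodl, a lectin of satellite cells, read 26.8 and 106.7, and Cdh15 (M-cadherin) read 3.7 and 9.5. These are examples chosen for that direction: of the 14 satellite markers 9 were lower and 5 higher in aged CD31_CD45 cells (median log2 -0.11), where 56.3% of all genes were lower. Among those higher, Vcam1 read 651.6 in aged and 505.5 in young, Itga7 109.4 and 84.5, and Des 132.5 and 72.2. The summed intensity of all 14 was 1194.3 in aged and 1131.5 in young cells, and Vcam1 was the largest part of it. Pax7, among the 9 lower, read 3.7 in aged and 10.6 in young CD31_CD45 cells. Nppc in these cells was 0.532% of its aged satellite value and 1.08% of its young satellite value. In PDGFRa cells Myf5 read 2.5 in aged and 4.0 in young, Pax7 was not above background, and Nppc was 0.718% of its aged and 0.887% of its young satellite value. Edn3 stood, as a share of its satellite value, at 9.20% to 9.91% in aged and 4.01% to 4.24% in young cells of the other populations. What satellite cells carried into the other sorts contributed to these low readings was not tested.

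The age effect shared by the 3 populations was tested with limma over all 6 arrays (population and age as terms), a contrast the choice of the genes did not use. None of the 7 genes passed an adjusted p of 0.05, and 0 of 18366 genes (0%) did, while 2025 genes (11%) had an unadjusted p under 0.05. Nppc had the largest effect relative to its error, -0.68 (SE 0.11, unadjusted p = 0.00474, limma adjusted p = 0.328), lower in 3 of 3 pairs. Ankrd1 had 0.69 (SE 0.22, unadjusted p = 0.0409, limma adjusted p = 0.429), higher in 3 of 3 pairs, or 2 of 3 with the local background of each spot. The remaining 5 had log2 effects from -0.51 for Mrln to 0.36 for Asb5, with limma adjusted p from 0.533 to 0.771. An age difference found in satellite cells alone enters the error of this test.

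The low levels in the other populations were compared with each other in the same fit. PDGFRa minus CD31_CD45 differences ran from -0.29 for Ankrd1 (SE 0.27, limma adjusted p = 0.526) to 0.51 for Mrln (SE 0.28, limma adjusted p = 0.282), and 0 of 7 genes both passed an adjusted p of 0.05 and differed 2-fold, which 10.1% of all genes did. Before adjustment 0 of the 7 had a p under 0.05, against 40.6% of all genes. Age differences found in satellite cells alone enter the error of this comparison too, with SE from 0.13 for Nppc to 0.38 for Tac4. The offset also compresses differences at these low intensities. The counts therefore do not show that the 7 genes were alike in these 2 populations. For 6 of the 7 no alternative separated these populations, apart from a scanner-set block that cannot do so, since each population lies wholly in 1 scanner set. Mrln read higher in both PDGFRa arrays (20.5 and 33.6) than in both CD31_CD45 arrays (6.3 and 12), and it passed both criteria, higher in PDGFRa cells, with an offset of 10 (1.05, limma adjusted p = 0.0137) and with the deposited value table (1.49, limma adjusted p = 0.00910). Its adjusted p was also under 0.05, at less than 2-fold, without background correction (0.87, limma adjusted p = 0.0452) and without either satellite array (0.51, limma adjusted p = 0.0214 each).

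Partner genes of the 7 were taken from lists of receptors, processing enzymes, paralogs and targets. Of 123 such genes 113 were tested. Against PDGFRa cells 8 were higher and 12 lower in satellite cells (7.08% and 10.6%, against 3.2% and 4.09% of all genes, or 7.29% in either direction). Against CD31_CD45 cells 7 were higher and 9 lower (6.19% and 7.96%, against 5.12% and 6.58%, or 11.7% in either direction). The calls against PDGFRa cells rest on both PDGFRa arrays, since without either one 0 of the 113 genes, and 0 genes in all, were called.

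No receptor gene for the 3 signalling peptides was called higher in satellite cells. Of 11 natriuretic peptide system genes 0 were called in either comparison (median log2 -0.02 against PDGFRa and -0.05 against CD31_CD45 cells, medians of all genes 0.01 and 0.02). Npr2, the receptor of C-type natriuretic peptide, read 178.8 in aged and 169.7 in young satellite cells, against 151.1 and 187.4 in PDGFRa and 179.3 and 203.9 in CD31_CD45 cells, aged before young. The PDGFRa values spanned both satellite values and overlapped the CD31_CD45 range, and the satellite values lay just below the CD31_CD45 values, with satellite minus PDGFRa and satellite minus CD31_CD45 differences of 0.10 (SE 0.09) and -0.06 (SE 0.09). Npr3, the clearance receptor, overlapped too, at 25.4 and 27.8 in satellite cells, 29.2 and 18.6 in PDGFRa and 24.7 and 30.2 in CD31_CD45 cells. The sister peptide gene Nppa was lower in satellite cells, with 7.9 in aged and 5.7 in young cells against 19.5 to 23.9 on the other arrays, which the offset of 50 reduces to under 2-fold (log2 -0.45, SE 0.06, limma adjusted p = 0.0225 against PDGFRa and 0.0154 against CD31_CD45 cells).

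Endothelin genes other than Edn3 that were called were all lower in satellite cells. Of 7 tested, 2 fell in satellite against PDGFRa and 3 against CD31_CD45 cells, and 0 rose. Ednrb, the receptor that endothelin 3 shares, read 6.2 in aged and 5.1 in young satellite cells, against 193.3 and 252.7 in aged and young CD31_CD45 cells, and fell by 2.66 (SE 0.14, limma adjusted p = 0.00275). Edn1, the endothelial isopeptide gene, read 18.4 and 12.1 in satellite cells against 845.8 and 470.1 in CD31_CD45 cells, and fell by 3.76 (SE 0.23, limma adjusted p = 0.00351); against PDGFRa cells it fell by 1.22 (SE 0.23, limma adjusted p = 0.0397). Ece1, which cleaves big endothelin, read 444.1 in aged and 232.0 in young satellite cells against 1561.9 and 2067.1 in CD31_CD45 cells (-2.39, SE 0.34, limma adjusted p = 0.0171). Mme, the peptidase neprilysin that degrades natriuretic peptides and tachykinins, was lower than in PDGFRa cells (-1.29, SE 0.08, limma adjusted p = 0.00734). The receptor gene Ednra was not analysed here.

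Tachykinin genes other than Tac4 were dim, at 49.4 or below on every array. Of 5 tested, 0 were called in either comparison. Tacr1, the receptor of hemokinin, read 1.4 and 1.8 in aged and young satellite cells, 2.3 in young PDGFRa cells and 1.2 and 1.4 in CD31_CD45 cells, and was not above background in aged PDGFRa cells. Tac1, which encodes substance P, read 12.5 and 7.2 in satellite cells, against 49.4 and 19.9 in PDGFRa cells and 4.2 and 4.7 in CD31_CD45 cells. Tacr2 and Tacr3 read at most 3.2 on any array. The Tac1 values did not overlap between populations and were highest in PDGFRa cells, but the difference of satellite from PDGFRa cells (-0.64, SE 0.20, limma adjusted p = 0.116) did not pass.

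**Figure D4:**
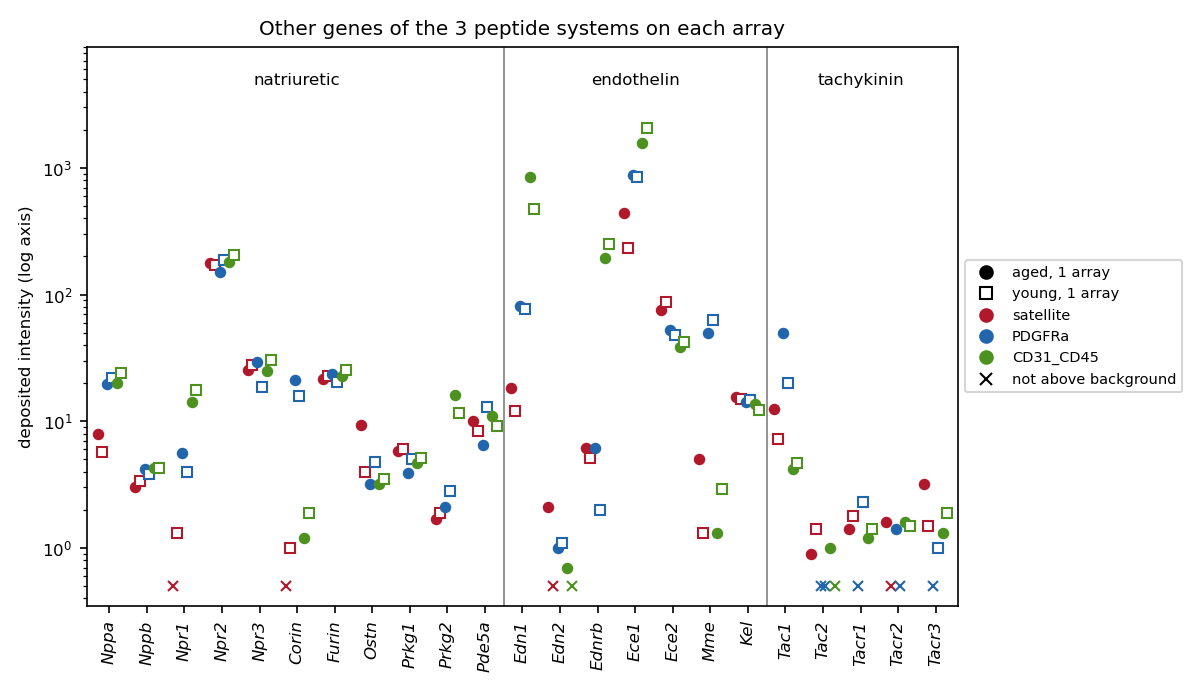
Deposited intensity (log axis) of the other natriuretic, endothelin and tachykinin genes on each array, filled circles for aged and open squares for young cells, coloured by population; crosses at the bottom mark probes not above background, which have no value. Npr2 lies between 151.1 and 203.9 on all 6 arrays, Ednrb is above 190 in CD31_CD45 cells alone, and the 3 tachykinin receptors lie at 3.2 or below.

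Among other secreted peptide genes, Gal, the precursor of galanin, shared the satellite pattern. It read 503.8 in aged and 525.8 in young satellite cells, against 25.5 and 31.0 in PDGFRa and 20.9 and 31.9 in CD31_CD45 cells, and rose by 3.15 (SE 0.09, limma adjusted p = 0.00391) and 3.23 (SE 0.09, limma adjusted p = 0.00127). Of 17 genes in this list it was the 1 that rose in either comparison, while 3 fell against PDGFRa cells (the enkephalin precursor Penk at -4.87, the neuromedin gene Nmb at -3.49 and the adrenomedullin gene Adm at -3.16) and 1, the neurotensin precursor Nts, against CD31_CD45 cells (-1.47). Npy, the neuropeptide Y gene, was not called but read 130.5 in aged and 23.1 in young satellite cells (log2 1.57) and at most 6.9 elsewhere.

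On the erythroferrone side, 2 of 14 genes rose in satellite against PDGFRa cells and 0 fell, and against CD31_CD45 cells 1 rose and 1 fell. Bmp6, one of the BMP ligands that erythroferrone binds, read 684.6 and 618.6 in aged and young satellite cells, 212.3 and 170.7 in PDGFRa and 613.8 and 635.1 in CD31_CD45 cells, a rise of 1.67 (SE 0.10, limma adjusted p = 0.00779) against PDGFRa cells. Id1, a BMP target gene, rose by 2.18 (SE 0.24, limma adjusted p = 0.0160) against PDGFRa and fell by 1.32 (SE 0.24, limma adjusted p = 0.0282) against CD31_CD45 cells. Of 9 C1q/TNF-related genes, relatives of Erfe, 0 rose and 3 fell against PDGFRa cells, and 2 rose (C1qtnf3 and C1qtnf12) and 1 fell (C1qtnf9) against CD31_CD45 cells. C1qtnf9 read 53.6 and 59.4 in satellite cells against 2080.9 and 3231.5 in CD31_CD45 cells.

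Paralogs of Ankrd1 followed it in part. Ankrd23, another titin-bound muscle ankyrin repeat gene, read 212.9 in aged and 158.5 in young satellite cells, 31.3 and 34.8 in PDGFRa and 43.6 and 46.3 in CD31_CD45 cells, and rose by 1.72 (SE 0.15, limma adjusted p = 0.0115) and 1.51 (SE 0.15, limma adjusted p = 0.00812). Ankrd2, the third of that family, was dim, with 22.3 and 17.1 in satellite cells and 2.5 to 6.2 elsewhere, and stayed under 2-fold on the offset scale (0.50 and 0.43). Of 17 YAP and TEAD genes 1 rose and 4 fell against PDGFRa cells, and 2 rose and 0 fell against CD31_CD45 cells. Vgll2, a muscle cofactor of TEAD, rose in both, by 5.39 (SE 0.14, limma adjusted p = 0.00391) and 5.09 (SE 0.14, limma adjusted p = 0.00117), whereas Ccn2, a standard YAP target, fell by 2.14 (SE 0.33, limma adjusted p = 0.0274) against PDGFRa cells. In the satellite age pair, where Ankrd1 was 2.31-fold higher in aged cells, 13 of the 17 were higher, against 44% of all genes, and 1 at least 2-fold, Ccn2, with 1004.2 in aged and 371.5 in young cells (log2 1.45). Ccn1, another YAP target, read 5306 in aged and 3034.5 in young satellite cells (0.75). The 13 include the 4 genes called lower in satellite than in PDGFRa cells. Aged PDGFRa cells read 3677.8 for Ccn2, 1330.7 for F3, 628.5 for Amotl1 and 389.1 for Axl. The 13 also include Vgll2, the 1 called higher, at 1.7 in aged PDGFRa and 1555.1 in aged satellite cells. Tead1, another of them, read 241.3 and 377.6 there, and Ccn1 5385.1 and 5306. Mesenchymal markers were higher in the same pair (10 of 11), and their part in this count was not tested.

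Asb2 was the 1 relative of Asb5 that passed both the adjusted p and the 2-fold criterion. Of 20 ASB adaptor genes and cullin 5 ligase subunits tested, 1 was called, Asb2, higher against PDGFRa cells, and 0 against CD31_CD45 cells. Short of 2-fold on the offset scale, Asb16, another adaptor, passed the adjusted p against CD31_CD45 cells, with 35.6 and 28.7 in aged and young satellite cells against 2.8 and 2.9 (0.84, limma adjusted p = 0.00749). So did Eloc, the elongin C adaptor subunit (0.82, limma adjusted p = 0.00582). Others passed as lower there: Asb8 (-0.46, limma adjusted p = 0.0316) and Asb10 (-0.33, limma adjusted p = 0.0294). Against PDGFRa cells Asb16 (0.47, limma adjusted p = 0.0328) and Eloc (0.44, limma adjusted p = 0.0258) passed as higher. Asb3 (-0.26, limma adjusted p = 0.0294) and the ligase subunit gene Elob (-0.43, limma adjusted p = 0.0304) passed as lower. Asb2, a muscle and blood cell adaptor, read 85.9 and 81.6 in satellite cells, 4.5 and 3.5 in PDGFRa and 70.4 and 42.7 in CD31_CD45 cells (1.62, SE 0.12, limma adjusted p = 0.00902 against PDGFRa). Asb11, a close paralog of Asb5, read 8.9 in aged and 3.4 in young satellite cells and 1.4 to 4.4 elsewhere. The scaffold Cul5 lay between 40.3 and 48.1 on all 6 arrays.

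For the calcium pump that myoregulin inhibits, Atp2a1 (the fast-muscle SERCA) read 112.8 in aged and 44.6 in young satellite cells, 5.2 and 8.5 in PDGFRa and 17.6 and 10.1 in CD31_CD45 cells, and rose by 1.40 (SE 0.28, limma adjusted p = 0.0471) against PDGFRa cells. It was 0.94 higher in aged than young satellite cells on the log2 scale, where Mrln was 1.10 lower. Myofibre markers had a median log2 difference of 2.32 against PDGFRa cells and 0.96 in the satellite age pair. Their part in the Atp2a1 values was not tested. With the local background of each spot Mrln was at -0.14 in that pair. Of 6 genes of this list 2 rose (Atp2a1 and the calcium release channel Ryr1) and 0 fell against PDGFRa cells, and 0 rose and 2 fell against CD31_CD45 cells, the pump inhibitor Pln by 1.41 (SE 0.09, limma adjusted p = 0.00368) and Atp2a3, the pump of blood and endothelial cells, by 1.60 (SE 0.20, limma adjusted p = 0.0121). The micropeptide genes Sln, Strit1, Arln and Erln were not analysed here.

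Genes with patterns like each of the 7 were sought by Pearson correlation of log2 values over the 6 arrays, among 1495 other genes that spanned at least 2 log2 units. The points share 3 populations, so high values mostly restate satellite cells against the rest. Edn3 was most like Calcr (r = 0.999), which also came next to Tac4 (r = 0.997), after Lmod2, a muscle actin nucleator (r = 0.997). Like Edn3 and Tac4, these genes were lower in aged satellite cells: Lmod2 read 71.7 in aged and 215.5 in young. Both satellite arrays enter the correlation, so this shared direction is part of what picked them. Nppc was nearest the teneurin gene Tenm4 (r = 0.997), the acetylcholine receptor subunit gene Chrna1 (r = 0.996) and Gal (r = 0.995). Erfe was nearest Fitm1, Heyl, a Notch target, and Cdh15 (r = 0.999 each). Stbd1 and Dot1l were among the 3 nearest of both Ankrd1 and Asb5 (r = 0.997 to 0.999), and Dctd was nearest Mrln (r = 1.00). Among the 7 themselves, r ran from 0.893 between Ankrd1 and Tac4 to 0.998 between Ankrd1 and Asb5.

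The satellite age difference kept its direction under every alternative for 6 of the 7 genes, all but Erfe. Over 6 alternatives, Ankrd1 lay between 1.21 and 2.35 and Asb5 between 1.03 and 1.49, so both stayed at least 2-fold higher in aged cells. One of the 6, the mean of all probes of a gene, could change nothing here, since each of the 7 genes has 1 probe. Nppc lay between -0.83 and -0.59. The local background of each spot brought Edn3 to -0.64, Tac4 to -0.67 and Mrln to -0.14 and turned Erfe to 0.65, and under median scaling Mrln was at -0.95.

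**Figure D5:**
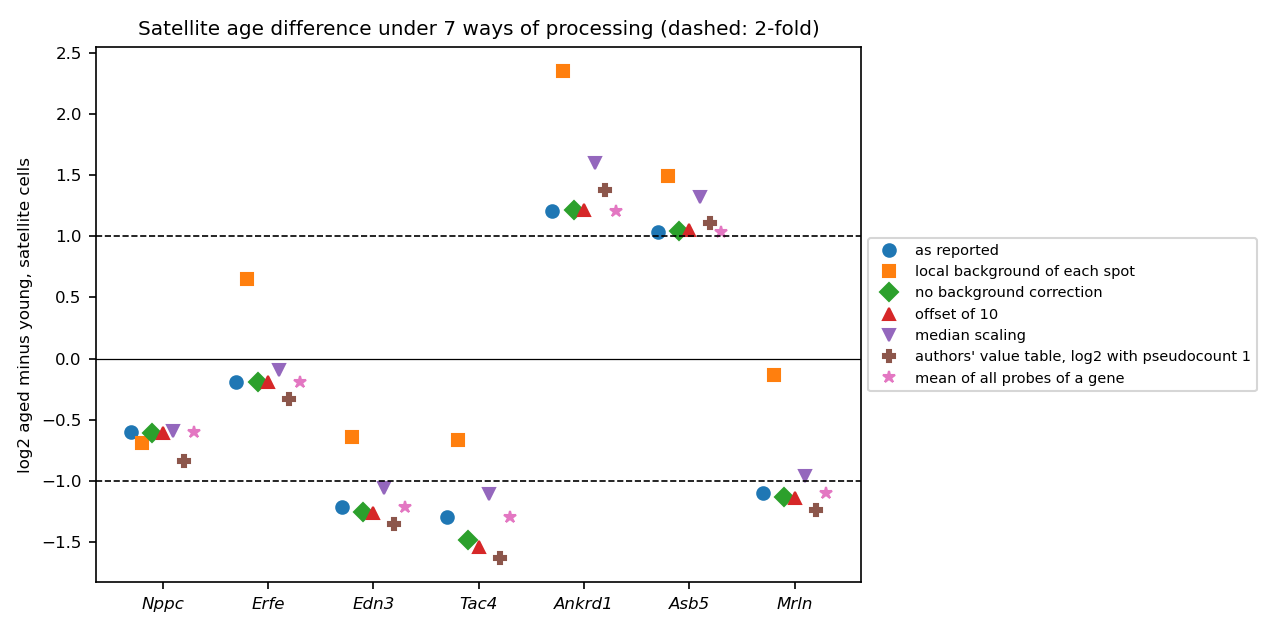
Log2 aged minus young difference of the 7 genes in satellite cells, 1 array against 1, under 7 ways of processing the same 2 arrays (symbols), with dashed lines at 2-fold. The mean of all probes repeats the values as reported, since each gene has 1 probe. Squares, for the local background of each spot, stand apart for Erfe (0.65), Edn3 (-0.64), Tac4 (-0.67), Ankrd1 (2.35) and Mrln (-0.14).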

How the data were processed

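Every array comes as scanner output and as 1 column of a value table. The scanner output gives, per the file headers, a median intensity at 635 nm for 27456 spots, merged from 3 gains. The deposited value table is linear intensity. Compared with the spots, each column was the spot median minus the 5% trimmed mean of 2736 blanks, scaled (largest difference 0.0559 intensity units), and left empty for probes not above background. Other steps of the authors' processing are not given in the sources used here. For tests, spot medians were corrected with normexp (blank-spot mean as background, offset 50) to follow the blanks used in that table, then log2 transformed and quantile normalised. Fold differences of dim genes are understated by the offset. Probe symbols are those of the platform annotation, brought up to GRCm38.p6 through Entrez identifiers (20690 of 23473 probes named), and a gene with several probes took the brightest. Genes above background on at least 2 arrays were tested with limma 3.58.1 in R 4.3.3 (2 residual and 1.50 prior degrees of freedom), two-sided, with Benjamini-Hochberg adjustment over 18366 genes; calls between populations also needed 2-fold. The fit was tested on simulated data. Members and lists were chosen with earlier results of these data known. Named genes are the 7 members, sort markers, the 3 peptide systems, the called partners with the largest differences, paralogs and the 3 most correlated genes per member. Names given outside that rule (Npy, Ccn1, Cul5, Myh4, Ckm, Myf5, Chodl, Vcam1, Itga7, Des, Eloc and Elob) were chosen after their values were seen. Alternatives changed the background, offset, scaling, filter, probe, source table, scanner set and arrays. With pooled cells and 1 array per group, p-values rest on the spread that the population and age terms leave between these arrays. That spread includes age differences that vary between populations, and it does not measure the spread between mice. The number of arrays limits the precision.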

Additional observations from a re-analysis of the deposited data

How the results depend on the processing

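All 7 genes had both satellite values above the other 4 arrays under each of the 7 alternatives run for it. Among these, the mean of all probes leaves the 7 genes, with 1 probe each, unchanged. The count of the 7 at least 2-fold in the satellite age pair (5) was 2 with the local background, where 598 genes were at least 2-fold higher and 668 lower, and 4 with median scaling. Over the 15 alternatives to the age test 0 of the 7 passed and 0 genes were called. Between PDGFRa and CD31_CD45 cells 1 of the 7 passed with an offset of 10, 1 with the deposited table (Mrln in both). A scanner-set block also gave 1 (Tac4, -1.25), but each of these populations lies in 1 set, so that value restates the satellite age difference and is no comparison of them. Partner calls of satellite against PDGFRa cells (20) were 0 with the local background and 35 with the deposited table, and 0 to 18 when 1 array was left out. Against CD31_CD45 cells (16) they were 3 with the local background, 28 without any background correction, 32 when the offset was 10 and 41 from the deposited table, and 13 to 17 with 1 array left out. Over all genes, calls ran from 0 to 2979 against PDGFRa (1339 as reported), 342 to 4430 against CD31_CD45 (2148) and 290 to 3792 between PDGFRa and CD31_CD45 cells (1858). Outside satellite cells the age differences of the 7 depended on the offset: with the deposited table Ankrd1 stood at 2.63 in the PDGFRa pair, against 0.66 as reported. Where 2 settings differ, the cause was not tested. No paired analysis was possible because the labels give no replicate numbers and each group holds 1 array; the age test itself already sets aged against young within the 3 populations. Within a population 1 array per age allows no test, and values near 1 lie at the detection limit.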
